A study of Saccharomyces cerevisiae with 18 samples.

Results

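The 10 ADE genes described here encode the enzymes that build adenine nucleotides from phosphoribosyl pyrophosphate (PRPP), and their transcripts were followed in 6 groups of budding yeast cultures. They were chosen by locus name, 10 of the 6612 transcripts measured, by a rule that uses no levels, although earlier results of these data were known. All 10 passed the filter on low values. Saccharomyces cerevisiae strains RM11, which descends from a vineyard isolate, and YJM975, from a patient, were grown as homozygous a/α diploids in S-CSM, a synthetic medium with a supplement mixture, holding 2% glucose, glycerol or ethanol. Each of the 6 strain and medium groups held 3 biological replicate cultures of 5 mL, harvested while still growing exponentially (optical density 0.5 to 1.0). The 18 libraries were made from polyadenylated RNA. Each strain is a single genetic background. A difference between them belongs to these strains as wholes. Whether the supplement mixture held adenine, which represses this pathway in laboratory strains, is not given in the sources used here.

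Purine synthesis assembles the purine ring step by step on a ribose phosphate and ends at inosine monophosphate (IMP), from which AMP and GMP are made. In laboratory yeast the transcription factors Bas1 and Pho2 act together at most ADE promoters, and late intermediates of the pathway itself, SAICAR and AICAR, favour their pairing, so that the genes are on when purines run short. In pathway order, ADE4 (YMR300C, chromosome XIII) encodes the amidotransferase that commits PRPP to purines, and ADE5,7 (YGL234W, VII) a protein with the enzymes of the second and the fifth step. ADE8 (YDR408C, IV) encodes the glycinamide ribotide transformylase, which uses a folate carrier, and ADE6 (YGR061C, VII) the amidotransferase that follows it. ADE2 (YOR128C, XV) encodes the carboxylase whose loss turns colonies red, ADE1 (YAR015W, I) the SAICAR synthetase, and ADE13 (YLR359W, XII) the adenylosuccinate lyase, which acts both before AICAR and in the branch to AMP. ADE16 (YLR028C, XII) and ADE17 (YMR120C, XIII) encode isozymes of the last steps to IMP, and ADE12 (YNL220W, XIV) the adenylosuccinate synthase that opens the AMP branch. No coding sequence of the 10 overlaps another annotated gene.

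The core sequence bound by Bas1, TGACTC, was searched on both strands in the 500 bases before each start codon of the reference strain S288C (RefSeq assembly R64). It occurred upstream of 9 of the 10 ADE genes and of 758 of 5896 genes (12.9%). At least 2 matches were found upstream of 6 of the 10 and of 86 of 5896 genes (1.46%). ADE16 was the member with no match in this window. The letters overlap the Gcn4 core TGACTCA, which was found upstream of 1 of the 10, ADE12, and of 4.07% of genes. All 15 windows around these matches lay in the gap to the upstream neighbouring gene. The match nearest each start codon is shown within 30 bases, in capitals, read along the gene's own strand, where GAGTCA is the core on the other strand. They are shown because 9 of the genes share these letters although they did not all move alike, and the bases of RM11 and YJM975 themselves were not examined.
ADE4 (chrXIII:867431-867460, minus strand): gacccgatgtatTGACTCttcctgaccgaa
ADE5,7 (chrVII:56286-56315, plus strand): acaagtgccgacTGACTCgtgtcctggtaa
ADE8 (chrIV:1289009-1289038, minus strand): actcgttgctagTGACTCtgacctgttttt
ADE6 (chrVII:616224-616253, minus strand): ttcaaccgttccTGACTCtttcctgctgac
ADE2 (chrXV:566327-566356, minus strand): atactaagtgatTGACTCttgctgaccttt
ADE1 (chrI:169146-169175, plus strand): cacgagtcagtcTGACTCttgcgagagatg
ADE13 (chrXII:844054-844083, plus strand): cctccgcgagcaGAGTCAaacttcaaacaa
ADE17 (chrXIII:509440-509469, minus strand): ccagaaatgaatTGACTCctctcataactt
ADE12 (chrXIV:234179-234208, plus strand): atccttttcattGAGTCAcagattaacaaa

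**Figure D1:**
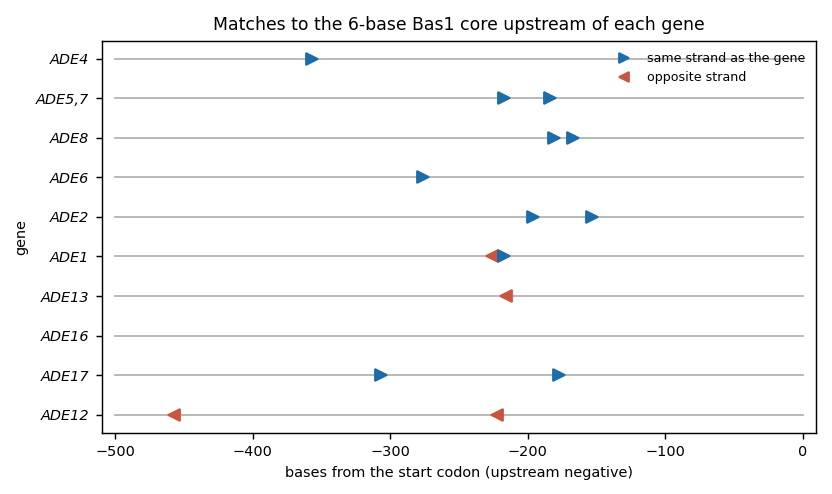
Distance of each TGACTC match from the start codon (x axis, bases, upstream negative) for the 10 ADE genes (y axis, in pathway order), with triangles pointing right for the gene's strand and left for the other. The matches nearest the start codon lie between 153 bases (ADE2) and 357 bases (ADE4) upstream, and ADE16 has none in the 500 bases.

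Levels are given as TPM, a length-corrected share of all measured mRNA. They can be compared between genes, but a lower share of a transcript in all cells and its absence from some cells cannot be told apart. Replicate libraries correlated across genes with r of 0.9945 to 0.9977. Because TPM is relative, the median of all 6309 tested genes is given for each comparison, and calls are given as deposited and after centring each library on its median gene. HXK2, a hexokinase gene that glucose induces, in the libraries labelled glucose stood at only 2.25 to 2.35 TPM in RM11 and 4.72 to 5.69 TPM in YJM975, against 64.8 to 78.3 TPM in RM11 in glycerol, 1.64 to 2.20 TPM in YJM975 in glycerol, and 1.33 to 2.39 TPM in RM11 and 4.56 to 5.95 TPM in YJM975 in ethanol. FBP1, a gene of glucose synthesis that glucose represses, stood there at 777 to 835 TPM in RM11 and 325 to 368 TPM in YJM975, above its 59.7 to 256 TPM in all others. ICL1, a glyoxylate cycle gene that glucose represses, reached 1668 to 1863 TPM in those RM11 libraries. FBP1 goes against the label glucose in both strains and ICL1 in RM11, while ICL1 in YJM975 was lowest there, at 360.2 to 428 TPM. HXK2 was low in all groups but RM11 in glycerol, where its level goes against the label. In both strains its glucose libraries overlapped its ethanol libraries, so HXK2 did not show the induction that the label glucose implies. Within YJM975 it was higher in glucose than in glycerol. Media are therefore named as labelled, and the glucose libraries also differ from all others in their sequencing run label, so medium and run cannot be told apart in comparisons with glucose.

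**Figure D2:**
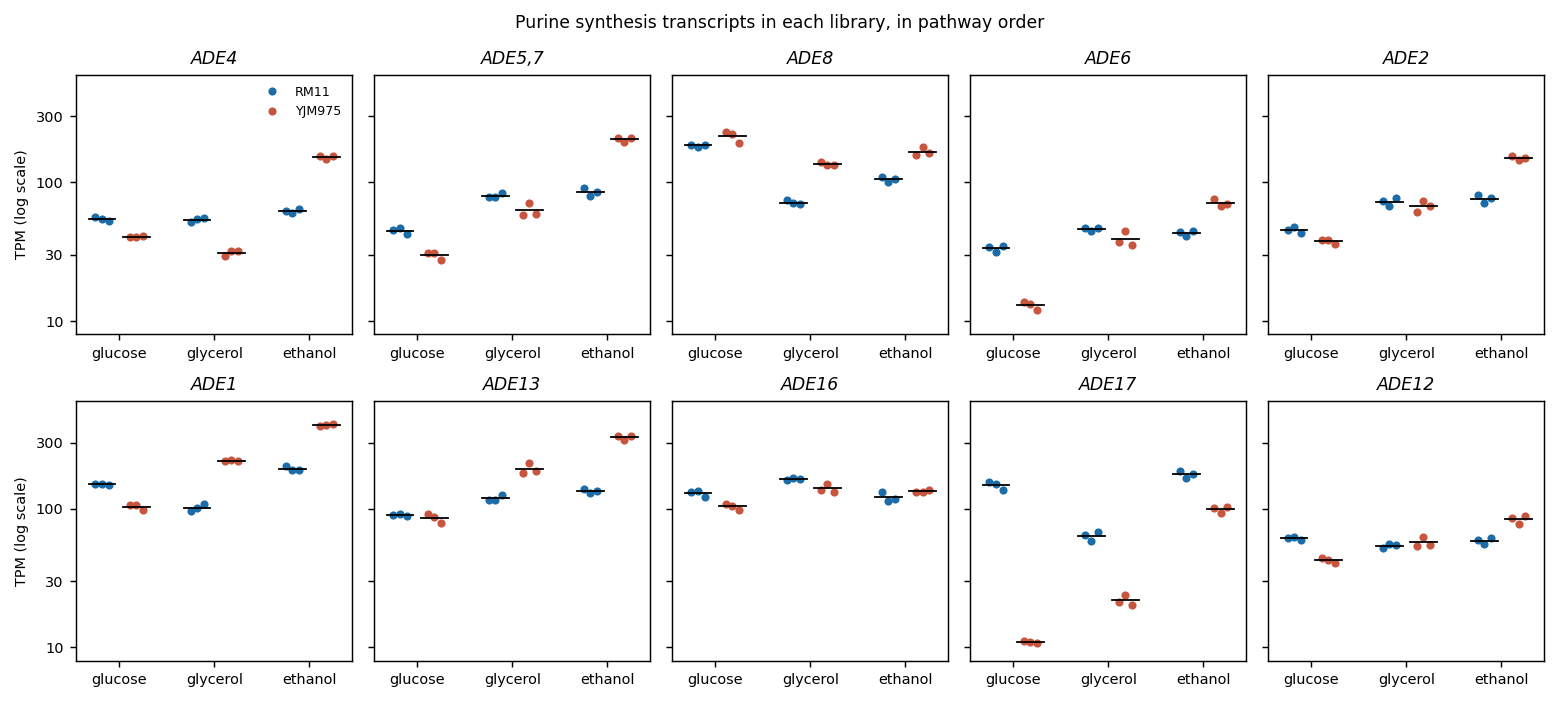
TPM of each ADE gene (y axis, log scale) by labelled medium (x axis), 3 libraries per strain as points (blue RM11, red YJM975) and the group mean as a bar, in pathway order. In ethanol the YJM975 points lie above those of RM11 for all genes but ADE16 and ADE17, and ADE17 ranges from 10.7 to 186 TPM.

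The 10 transcripts together made up in glucose 940.2 ± 22.8 TPM in RM11 and 683 ± 40.9 TPM in YJM975 (mean ± SD, n = 3), 827 ± 22.5 and 971 ± 53.3 TPM in glycerol, and 1059 ± 48.6 and 1790.2 ± 31.8 TPM in ethanol. YJM975 in ethanol was the group with the largest sum, and its libraries, from 1755 to 1817 TPM, did not overlap those of any other group. The order of the genes changed with the group. ADE8 was the most abundant in both strains in glucose, ADE16 in RM11 in glycerol, and ADE1 in the other 3 groups. ADE6 was the least abundant in 4 groups and ADE17 in YJM975 in glucose and glycerol. Neighbours in this order that overlapped between their libraries were ADE1 with ADE17 and ADE2 with ADE5,7 in RM11 in glucose, ADE16 with ADE1 and ADE12 with ADE4 in YJM975 in glucose, and ADE2 with ADE8 and ADE12 with ADE4 in RM11 in glycerol. In YJM975 in glycerol they were ADE16 with ADE8, ADE2 with ADE5,7 and ADE5,7 with ADE12. In ethanol they were ADE13 with ADE16, ADE5,7 with ADE2 and ADE4 with ADE12 in RM11, and ADE4 with ADE2 in YJM975.

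In ethanol, 8 of the 10 ADE genes were higher in YJM975 than in RM11, ADE17 was lower and ADE16 did not pass the test. The 8 include the first enzyme of the pathway and that of the AMP branch, but not the isozymes of the last steps to IMP. ADE4, of the committing step, stood at 62.6, 60.5 and 64.7 TPM in RM11 and at 156, 148 and 155 TPM in YJM975, a log2 difference of 1.28 ± 0.05 (SE, limma adjusted p = 6.57e-13). ADE5,7 stood at 90.8, 80.2 and 85.1 TPM in RM11 and at 208, 195 and 210.5 TPM in YJM975, a difference of 1.25 ± 0.07. The YJM975 libraries lay above every RM11 library for both. ADE13 stood at 139, 131 and 134 TPM in RM11 and at 334, 315 and 334 TPM in YJM975, the same log2 difference as ADE4, 1.28 ± 0.06. ADE1 stood at 204, 191 and 189 TPM in RM11 and at 393, 404 and 405 TPM in YJM975, a difference of 1.04 ± 0.05. ADE2 differed by 0.97 ± 0.07, ADE6 by 0.71 ± 0.08, ADE8 by 0.65 ± 0.06 and ADE12 by 0.51 ± 0.06.
The isozyme genes stood apart in ethanol. ADE17 held 186, 168 and 178 TPM in RM11 and 101, 92.9 and 103 TPM in YJM975, a log2 difference of -0.83 ± 0.07 (limma adjusted p = 3.23e-08). ADE16 held 132, 113 and 117 TPM in RM11 and 131, 132 and 137 TPM in YJM975, which overlap, a difference of 0.14 ± 0.06 (limma adjusted p = 0.0834, or 0.0155 without replicate 1 of RM11). Across all genes limma called 26.8% higher and 21.2% lower in YJM975 in this medium, against 8 and 1 of the 10. The median ADE gene differed by 0.84 on the log2 scale and the median of all genes by 0.03. Median centring gave the same 8 and 1, and 24.1% and 28.5% of all genes.

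In the libraries labelled glucose, 8 of the 10 genes were lower in YJM975 as deposited, but the median of all genes was also lower, by 0.38 on the log2 scale, and relative to it the median ADE gene differed by only -0.09. Across all genes 22.5% were called higher and 60.7% lower, against which the 1 and 8 of the 10 are read. ADE17 differed far more than the others. It stood at 155, 149.7 and 136 TPM in RM11 and at 11.2, 11.0 and 10.7 TPM in YJM975, a 13.4-fold gap in the group means and a log2 difference of -3.63 ± 0.07 (limma adjusted p = 1.69e-17), or -3.25 relative to all genes. ADE6 stood at 34.4, 31.5 and 34.7 TPM in RM11 and at 13.8, 13.4 and 12.1 TPM in YJM975, a difference of -1.30 ± 0.08, or -0.92 relative to all genes. The libraries of the strains were far apart for both genes. ADE8 was the member called higher, at 185, 181 and 187 TPM in RM11 and 229, 222 and 194 TPM in YJM975, a difference of 0.22 ± 0.06, or 0.60 relative to all genes. After median centring ADE17, ADE6, ADE5,7 and ADE1 were lower, and ADE8, ADE13 and ADE2 higher, against 39.6% and 43.7% of all genes. ADE2 was lower as deposited, at -0.26 ± 0.07, and ADE13 did not pass the test there, at -0.06 ± 0.06 (limma adjusted p = 0.399). ADE4 and ADE16 were lower as deposited and changed sign with centring, and ADE12 was lower as deposited, and none of these passed the test after centring.

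In glycerol, ADE1, ADE8 and ADE13 were higher in YJM975 under every scaling tried, and ADE17 was lower. ADE1 stood at 96.8, 101 and 108 TPM in RM11 and at 220.0, 225 and 222 TPM in YJM975, a log2 difference of 1.12 ± 0.05 (limma adjusted p = 2.03e-13), or 1.71 relative to the median of all genes, which was -0.59. ADE8 stood at 74.3, 70.5 and 69.9 TPM in RM11 and at 139.6, 134 and 134 TPM in YJM975, a difference of 0.91 ± 0.06. ADE13 stood at 116, 115 and 126 TPM in RM11 and at 181, 214 and 187 TPM in YJM975, a difference of 0.70 ± 0.06. For these 3 genes every YJM975 library lay above every RM11 library. ADE17 stood at 64.2, 58.6 and 68.5 TPM in RM11 and at 21.2, 23.9 and 20.3 TPM in YJM975, a difference of -1.51 ± 0.07, or -0.91 relative to all genes. ADE4 was lower as deposited, at 52.1, 54.4 and 55.0 TPM in RM11 and 29.4, 31.8 and 32.0 TPM in YJM975, a difference of -0.77 ± 0.05, but did not pass the test after median centring (limma adjusted p = 0.0914). In all 3 were higher and 5 lower as deposited, against 16.2% and 70.1% of all genes. After centring 8 were higher and 1 lower, against 46.1% and 37.6%, because ADE5,7, ADE6 and ADE16, which were lower as deposited, and ADE2 and ADE12, which did not pass, were higher then. Without replicate 2 of YJM975, ADE2 was called lower as deposited, at -0.18 (limma adjusted p = 0.0307).

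**Figure D3:**
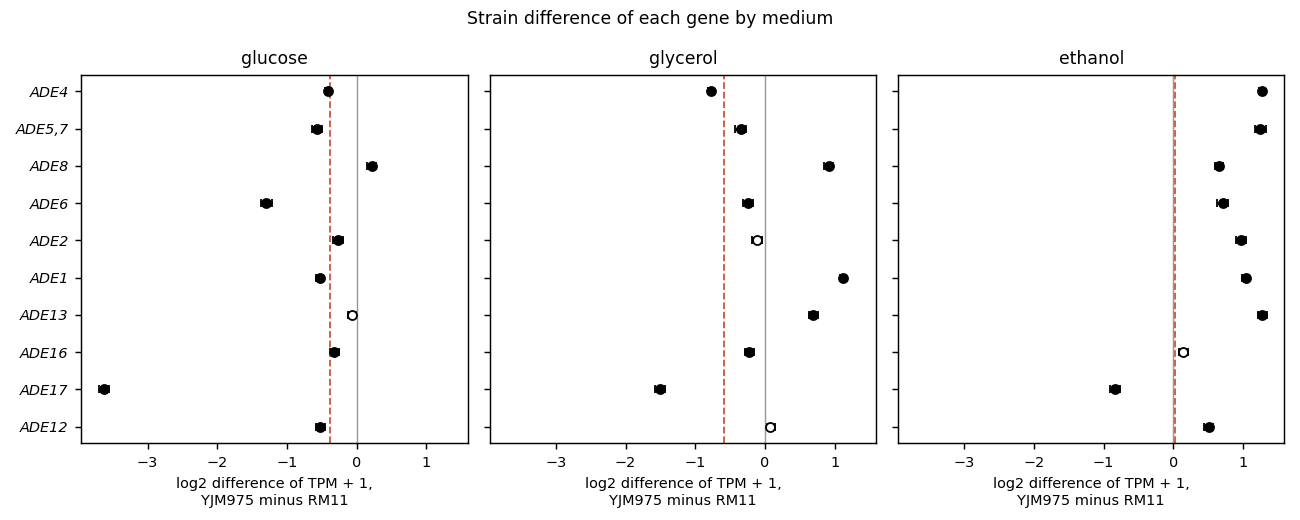
log2 difference of TPM + 1 between the strains (x axis, YJM975 minus RM11, bars SE from limma) for each ADE gene (y axis, pathway order) in each labelled medium. Filled points passed the test, the grey line is 0 and the red dashed line the median of all tested genes, -0.38 in glucose, -0.59 in glycerol and 0.03 in ethanol.

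Within RM11 the ADE genes changed in both directions from glucose to glycerol, and mostly rose from glucose to ethanol. From glucose to glycerol ADE5,7 rose by 0.82 ± 0.07 on the log2 scale, ADE2 by 0.66 ± 0.07, ADE6 by 0.45 ± 0.08 and ADE13 by 0.41 ± 0.06. ADE8 fell by 1.36 ± 0.06, ADE17 by 1.19 ± 0.07 and ADE1 by 0.55 ± 0.05, each without overlap between the libraries. In all 5 rose and 4 fell, against 53% and 28.7% of all genes, with a median of 0.16 for the ADE genes and 0.23 for all genes. After centring 4 rose and 5 fell, against 38.5% and 43.1%. The fifth that rose as deposited, ADE16, did not pass the test after centring, ADE4 fell only after centring, and ADE12 fell in both but missed the threshold without replicate 2 of RM11 in glucose or replicate 1 in glycerol (limma adjusted p = 0.0509 and 0.0609). From glucose to ethanol 7 rose and 1 fell, as deposited and after centring, against 32% and 37.4% of all genes as deposited and 35.6% and 36.6% after it. The median was 0.31 for the ADE genes and -0.03 for all genes. ADE5,7 rose by 0.91 ± 0.07, ADE2 by 0.74 ± 0.07 and ADE13 by 0.58 ± 0.06, while ADE8 fell by 0.80 ± 0.06. ADE12 and ADE16 did not pass the test, although ADE16 was called lower without replicate 1 in ethanol, so that 2 genes then fell.

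RM11 also showed the difference between glycerol and ethanol, which lies within 1 sequencing run. From glycerol to ethanol ADE17 rose by 1.46 ± 0.07, from the values given above to a mean of 177 ± 8.99 TPM (SD, n = 3), and ADE1 by 0.93 ± 0.05, ADE8 by 0.55 ± 0.06, ADE4 by 0.21 ± 0.05 and ADE13 by 0.17 ± 0.06. ADE16 fell by 0.44 ± 0.06. These are 5 that rose and 1 that fell, against 21.4% and 54.1% of all genes, with a median of 0.15 for the ADE genes and -0.23 for all genes. After centring 9 rose and 1 fell, against 43.5% and 33.3%, ADE6 among the 9 after a value of -0.10 ± 0.08 as deposited. The call of ADE13 was lost without replicate 1 or 2 in glycerol or replicate 1 in ethanol (limma adjusted p = 0.0673, 0.0771 and 0.0746).

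Within YJM975 the median ADE gene moved more than in RM11 as deposited, and most of the genes moved together. From glucose to ethanol 9 of the 10 rose, by a median of 1.93 on the log2 scale, while the median of all genes rose by 0.35. ADE17 rose from 11.0 ± 0.217 to 99.0 ± 5.39 TPM (SD, n = 3), a log2 change of 3.06 ± 0.07 (limma adjusted p = 4.54e-17) and 9.03-fold in the means. ADE5,7 rose from 27.5 to 31.2 TPM to 195 to 210.5 TPM, by 2.73 ± 0.07, and ADE6 from 13.1 ± 0.906 to 71.2 ± 4.44 TPM, by 2.36 ± 0.08. ADE2, ADE1, ADE13 and ADE4 rose by 1.97 ± 0.07, 1.95 ± 0.05, 1.92 ± 0.06 and 1.89 ± 0.05. ADE8 went the other way and fell by 0.37 ± 0.06, from 215 ± 18.9 to 167 ± 11.5 TPM. The background was 56.5% of genes higher and 30.3% lower. After centring 8 rose and 1 fell, against 40.9% and 46.7%, since ADE16, up by 0.36 ± 0.06 as deposited, changed sign and did not pass.

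From glucose to glycerol in YJM975, 8 rose and ADE8 and ADE4 fell, with the same counts after centring. All genes were called higher for 41.2% and lower for 42.6% as deposited, and 41% and 43.7% after centring. ADE6 rose from 13.1 ± 0.906 to 38.9 ± 4.82 TPM, ADE13 by 1.16 ± 0.06, ADE1 by 1.10 ± 0.05 and ADE5,7 by 1.04 ± 0.07. ADE8 fell by 0.66 ± 0.06 and ADE4, the first enzyme of the pathway, by 0.38 ± 0.05. The median ADE gene rose by 0.87 while the median of all genes changed by -0.02. From glycerol to ethanol, within 1 sequencing run, 9 rose, and none fell by limma or at an unadjusted p below 0.05, against 64% and 13.1% of all genes. The median ADE gene rose by 0.85 and the median of all genes by 0.36. Relative to all genes the median ADE gene thus rose by 0.49 in YJM975, and by 0.38 in RM11. ADE4 rose most, from 31.1 ± 1.46 to 153 ± 4.51 TPM (SD, n = 3), by 2.26 ± 0.05 (limma adjusted p = 1.38e-16), then ADE17 by 2.13 ± 0.07 and ADE5,7 by 1.69 ± 0.07. ADE16 changed by -0.07 ± 0.06 (limma adjusted p = 0.345), the 1 gene of the 10 that did not pass. After centring 8 rose and 2 fell, against 32.3% and 40.8%. The 2 were ADE16 and ADE8, which had risen by 0.29 ± 0.06 as deposited.

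**Figure D4:**
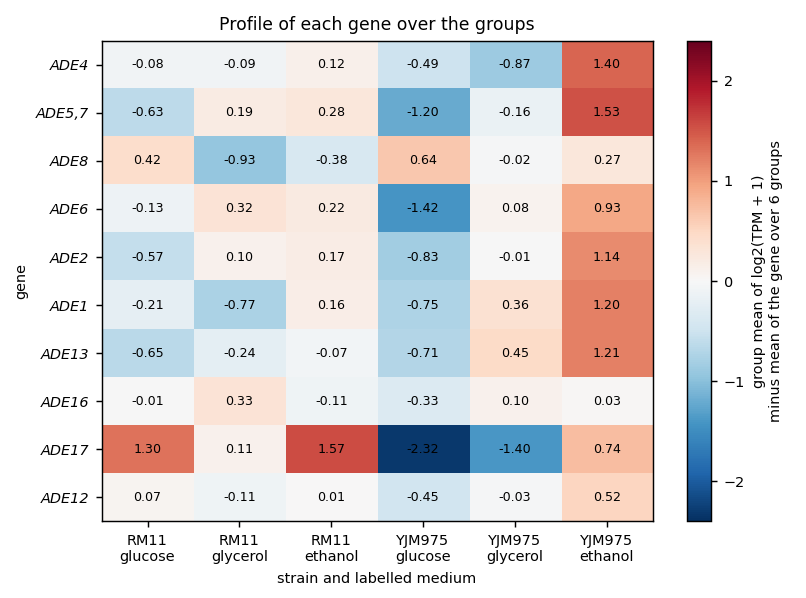
Group mean of log2(TPM + 1) minus the gene's mean over the 6 groups (colour and printed value), with genes as rows in pathway order and strain and labelled medium as columns. The YJM975 ethanol column is above 0 for every gene, from 0.03 (ADE16) to 1.53 (ADE5,7), and ADE17 spans -2.32 to 1.57.

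The strains' responses to the medium differed for most ADE genes. The change from glucose to ethanol was more positive in YJM975 than in RM11 for 10 of 10 genes, against 56.5% of all genes (20.2% less), with a median difference of 1.45 on the log2 scale and 0.40 for all genes. After centring it was so for 8 of 10, against 35.4% (41.8% less), and ADE8 and ADE16 then lay slightly below 0 and did not pass. For glucose to glycerol 6 were more and 1 less positive, against 31.5% and 46.7% of all genes, or 9 more positive after centring, against 43.4% (37.1% less). The median difference was 0.65 for the ADE genes and -0.18 for all genes. The 1 less positive was ADE4, at -0.36 ± 0.07 as deposited, which did not pass after centring. ADE2 and ADE5,7 did not pass as deposited with all libraries, but ADE2 passed without replicate 1 of YJM975 in glycerol (limma adjusted p = 0.0449), and ADE5,7 without that library, replicate 3 of the same group or replicate 3 of RM11 in glucose (limma adjusted p = 0.0350, 0.0364 and 0.0427). For glycerol to ethanol 8 were more and 1 less positive, against 65.4% and 15.4% of all genes, or 4 and 4 after centring, against 33.7% and 44.6%. The median difference was 0.63 for the ADE genes and 0.60 for all genes, so as a set the ADE genes lay close to all genes there. ADE2, ADE4, ADE5,7 and ADE6 were the 4 more positive both ways, and ADE8 was less positive both ways. The 4 less positive after centring were ADE8, ADE1, ADE12 and ADE16. ADE1 did not pass as deposited, at -0.08 ± 0.07 (limma adjusted p = 0.255), and stood at -0.81 after centring (limma adjusted p = 1.76e-09). It was also called less positive with quantile normalization, at -0.43, and when rescaled without the 50 most abundant genes, at -0.48. These comparisons share libraries, so their values are given side by side and not as independent results.

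ADE16 and ADE17, whose proteins catalyse the same steps, had the flattest and the steepest profiles of the 10. The SD over the 6 group means was 0.22 on the log2 scale for ADE16 and 1.55 for ADE17, and between 0.31 (ADE12) and 0.93 (ADE5,7) for the other 8. ADE16 ranged from 97.3 to 167 TPM over all 18 libraries and ADE17 from 10.7 to 186 TPM. In RM11 ADE17 made up 53.1 ± 0.809% of the summed TPM of the pair in glucose, 28.0 ± 1.81% in glycerol and 59.4 ± 0.974% in ethanol (SD, n = 3). In YJM975 it made up 9.57 ± 0.335%, 13.5 ± 0.145% and 42.6 ± 1.06%. ADE17 was thus the larger of the pair in RM11 in glucose and ethanol, and the smaller in the other 4 groups. The log2 ratio of ADE16 to ADE17 was -0.18 ± 0.05, 1.35 ± 0.13 and -0.55 ± 0.06 in RM11, in the order glucose, glycerol, ethanol, and 3.13 ± 0.06, 2.63 ± 0.01 and 0.43 ± 0.06 in YJM975. No test was run on these ratios.

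Reads of the pair can be told apart by sequence, since the S288C coding sequences were 74.7% identical over 1779 aligned positions and shared no identical run longer than 19 bases. None of the other 8 genes aligned to another coding sequence. The first 60 coding bases of each are shown with their 16 differences in capitals, because the contrast between the isozymes rests on telling them apart.
ADE16 (chrXII:201256-201315, minus strand): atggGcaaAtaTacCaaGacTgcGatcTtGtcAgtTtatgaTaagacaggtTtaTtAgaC
ADE17 (chrXIII:509221-509280, minus strand): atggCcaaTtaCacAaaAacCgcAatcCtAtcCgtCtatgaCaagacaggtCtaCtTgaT
Both lie beside a gene for ribosomal protein L15, ADE16 downstream of RPL15A and ADE17 downstream of RPL15B, on the same strand. How far either strain differs from the sequences used for quantification was not tested.

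**Figure D5:**
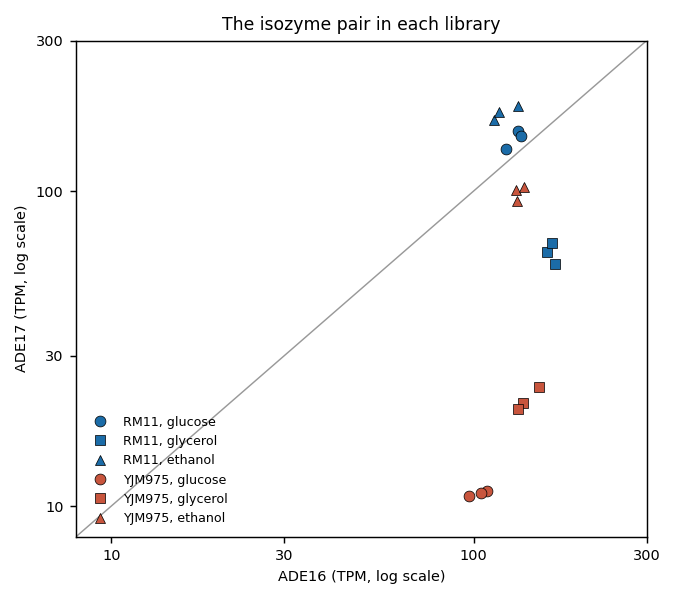
ADE17 against ADE16 in each library (TPM, both axes log scale), coloured by strain (blue RM11, red YJM975), with circles for glucose, squares for glycerol and triangles for ethanol, and the line of equal levels. Libraries spread widely along the ADE17 axis, 10.7 to 186 TPM, and little along the ADE16 axis, 97.3 to 167 TPM.

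Genes that supply glycine and folate-bound single-carbon units were also higher in YJM975 in ethanol, 6 of 8 against 26.8% of all genes. Of these supplies, the single-carbon units are consumed by the ADE8 step and by that of ADE16 and ADE17. SHM2, the cytosolic serine hydroxymethyltransferase, stood at 506, 453 and 488 TPM in RM11 and 1728, 1539.6 and 1750.3 TPM in YJM975, a log2 difference of 1.79 ± 0.07. MTD1, a folate dehydrogenase, stood at 119, 117 and 123 TPM against 391, 388 and 399.7 TPM, a difference of 1.71 ± 0.07. Every YJM975 library lay above every RM11 library for both, and GCV2, of the glycine cleavage complex, differed by 1.38 ± 0.07. In glycerol 5 were higher and 3 lower as deposited, against 16.2% and 70.1% of all genes, or 6 and 1 after centring, against 46.1% and 37.6%, with GCV1, also of that complex, at 2.02 ± 0.07, SHM2 at 1.72 ± 0.07 and the mitochondrial folate enzyme gene MIS1 at -2.64 ± 0.09. In glucose 3 were higher and 3 lower, against 22.5% and 60.7% of all genes, or 7 and 1 after centring, against 43.7% and 39.6%, with MIS1 at -1.01 ± 0.09, GCV2 at 0.60 ± 0.07 and GCV1 at 0.41 ± 0.07, and SHM2 stood at a mean of 801 ± 53.9 TPM in RM11 and 800.2 ± 44.5 TPM in YJM975 (SD, n = 3).

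Genes of the branch to GMP were lower in YJM975 in glucose and glycerol. Of the ADE genes, 3 were higher and 5 lower in glycerol as deposited, against 16.2% and 70.1% of all genes. After centring 8 ADE genes were higher and 1 lower there, against 46.1% and 37.6%. The 4 genes of this list are the IMP dehydrogenases IMD2, IMD3 and IMD4, which open the branch, and the GMP synthase GUA1. All 4 were lower in glucose, against 60.7% of all genes. IMD3, IMD4 and GUA1 were also lower in glycerol, against 70.1% of all genes. In glycerol IMD4 differed by -3.66 ± 0.10 and IMD3 by -1.74 ± 0.07. IMD3, IMD4 and GUA1 were lower there after centring too, against 37.6% of all genes. IMD2, at -2.06 ± 0.11, stood at a mean of 5.56 TPM in RM11 in glycerol and at means of 0.572 to 1.26 TPM in the other groups. It passed the filter on low values through RM11 in glycerol, so its call in that medium is not read as a result and not counted. In glucose IMD3 stood at 28.3, 28.5 and 28.6 TPM in RM11 and at 2.19, 2.18 and 2.06 TPM in YJM975, a difference of -3.23 ± 0.07, and GUA1 differed by -2.31 ± 0.08 and IMD4 by -0.98 ± 0.10. After centring 3 were lower in glucose, against 39.6%. In ethanol 3 were higher in YJM975, against 26.8% of all genes, with IMD4 at 1.28 ± 0.10, GUA1 at 0.44 ± 0.08 and IMD3 at 0.19 ± 0.07. The IMD genes are 80.3 to 89.0% identical in S288C, so their split depends on how reads were assigned.

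The PRPP synthases, which make the substrate of the ADE4 step, were lower in YJM975 for 4 of 5 in glucose and 5 of 5 in glycerol, and higher for 3 of 5 in ethanol. Of all genes 60.7% and 70.1% were lower in glucose and glycerol, so the counts as deposited in these media lie not far from the background. In ethanol 26.8% of all genes were higher and 21.2% lower, against 3 and 0 of the 5. After centring the PRPP synthase counts were 4 lower and 1 higher in glucose, against 39.6% and 43.7%, 3 lower and 2 higher in glycerol, against 37.6% and 46.1%, and 3 higher and 1 lower in ethanol, against 24.1% and 28.5%. PRS3 differed by -1.54 ± 0.05, -1.83 ± 0.05 and 0.21 ± 0.05 in the 3 media, PRS1 by -0.91 ± 0.05, -1.08 ± 0.05 and 0.25 ± 0.05, and PRS5 by -0.90 ± 0.06, -1.41 ± 0.06 and 0.27 ± 0.06. Of 17 genes for salvage, uptake and interconversion of purines, 3 were higher and 13 lower in glucose, 5 and 11 in glycerol, and 6 and 4 in ethanol. The shares of all genes higher and lower were 22.5% and 60.7%, 16.2% and 70.1%, and 26.8% and 21.2%. The counts as deposited lie not far from this background in any of the media. After centring the counts were 6 and 7, 10 and 5, and 6 and 4, against 43.7% and 39.6%, 46.1% and 37.6%, and 24.1% and 28.5%. AAH1, the adenine deaminase, differed by -3.22 ± 0.11 in glycerol and 1.78 ± 0.11 in ethanol, and FCY2, the purine and cytosine permease, by -2.03 ± 0.10 and 0.87 ± 0.10. The third largest difference in ethanol was that of HPT1, the hypoxanthine and guanine salvage enzyme, at 0.70 ± 0.05. In glycerol the next after AAH1 and FCY2 was APT2, a paralogue of the adenine salvage gene APT1, at -1.27 ± 0.06. In glucose the largest were the adenylate kinase gene ADK1 at -2.49 ± 0.05, the adenosine kinase gene ADO1 at -1.73 ± 0.06 and APT1 itself at -1.50 ± 0.07.

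Histidine synthesis, whose side product AICAR enters the purine pathway, was higher in YJM975 in ethanol for 6 of 7 genes and lower for 1, against 26.8% and 21.2% of all genes, with HIS7 at 0.97 ± 0.07, HIS4 at 0.71 ± 0.07 and HIS1 at 0.41 ± 0.05, or 5 and 1 after centring, against 24.1% and 28.5%. In glucose 3 were higher and 4 lower both ways, against 22.5% and 60.7% as deposited and 43.7% and 39.6% after centring, with HIS5 at -1.51 ± 0.05, HIS7 at -1.41 ± 0.07 and HIS2 at -1.23 ± 0.07. In glycerol 1 was higher and 5 lower, near the 16.2% and 70.1% of all genes, or 4 and 2 after centring, against 46.1% and 37.6%, with HIS1 at -1.96 ± 0.05, HIS7 at -1.55 ± 0.07 and HIS4 at 1.03 ± 0.07.

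Of the regulators, the BAS1 transcript itself was higher in YJM975 in ethanol and lower in glycerol. It stood at 7.44, 5.77 and 6.28 TPM in RM11 and 10.3, 10.4 and 10.4 TPM in YJM975 in ethanol, a log2 difference of 0.61 ± 0.09 (limma adjusted p = 1.72e-05). In glycerol it stood at 18.8, 19.5 and 16.9 TPM in RM11 and 4.35, 5.06 and 5.29 TPM in YJM975, a difference of -1.72 ± 0.09. Of the 10 ADE genes, 3 were higher and 5 lower there as deposited, against 16.2% and 70.1% of all genes. After centring 8 were higher and 1 lower, against 46.1% and 37.6%. In glucose BAS1 differed by -0.47 ± 0.09 and did not pass after centring. PHO2 stayed between 21.6 and 33.6 TPM in all libraries and differed by -0.22 ± 0.06, -0.32 ± 0.06 and -0.09 ± 0.06 in glucose, glycerol and ethanol, the last not called. After centring PHO2 was higher in glucose and glycerol and lower in ethanol. GCN4, the activator of amino acid synthesis genes, differed by -0.60 ± 0.06, -0.35 ± 0.06 and 0.33 ± 0.06, and in glycerol was higher after centring.

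Among 6299 other tested genes, those whose profile over the 6 group means lay closest to the mean profile of the ADE genes were IES5, PPH22, YLR222C-A, CIR1, YDL016C and WTM1, with root mean square differences of 0.11 to 0.20 on the log2 scale. IES5 encodes a subunit of the INO80 chromatin remodeller and PPH22 a catalytic subunit of protein phosphatase 2A. By the same measure against the mean of the other 9, the ADE genes themselves lay at 0.25 (ADE12) to 1.26 (ADE17), with ADE8 next to ADE17 at 0.87.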

How the data were processed

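The authors' deposited table gives TPM for 6612 transcripts, which adjusts for transcript length and sums to the same total in every library. The submitters' processing notes name kallisto; the version, options and transcript set used are not stated there. TPM keeps no depth, so depth is unknown and no counting interval is given. All 18 columns were matched to samples by name. The filter, a mean of 1 TPM or more, left 6309 genes. limma (3.58.1, R 4.3.3) was fitted to log2(TPM + 1) once, with 6 group means and 12 residual degrees of freedom, using a variance trend. P-values were adjusted by Benjamini-Hochberg over all tested genes within each of 12 contrasts, with calls at 0.05. Fold changes on this scale understate those of low genes.

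The members and the pathway lists were chosen with earlier results of these data known. Named were all members and regulators, up to 3 called genes per list with the largest difference, the 6 genes with the most alike profile, and HXK2, ICL1 and FBP1. Of the transcripts, 5929 matched locus names in RefSeq assembly R64, which gave the sequences and coordinates of strain S288C. BLAST (2.17.0) and MAFFT (7.526) compared coding sequences. The fit was tested on simulated data. Tried as alternatives were pseudocounts of 0.1 and 5, no filter or 10 TPM, centring on the median gene, quantile normalization, a rescaling that drops the 50 most abundant genes, fits to only the compared groups, a replicate block, no trend, and each library left out. A fit without the glucose libraries was added after seeing the data. Figures were drawn with matplotlib (3.10.9).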

Additional observations from a re-analysis of the deposited data

Results flagged for a closer look

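The medium changed several ADE genes differently in the 2 strains, by a test of the difference itself (limma, YJM975 change minus RM11 change, log2 scale ± SE). From glucose to glycerol the differences that passed were ADE1 at 1.65 ± 0.07, ADE4 at -0.36 ± 0.07, ADE6 at 1.05 ± 0.11, ADE8 at 0.70 ± 0.09, ADE12 at 0.60 ± 0.09, ADE13 at 0.76 ± 0.09 and ADE17 at 2.12 ± 0.10 (adjusted p from 4.03e-13 to 7.83e-05). From glucose to ethanol the differences that passed were ADE1 at 1.57 ± 0.07, ADE2 at 1.23 ± 0.10, ADE4 at 1.69 ± 0.07, ADE5,7 at 1.82 ± 0.11, ADE6 at 2.01 ± 0.11, ADE8 at 0.44 ± 0.09, ADE12 at 1.03 ± 0.09, ADE13 at 1.34 ± 0.09, ADE16 at 0.46 ± 0.09 and ADE17 at 2.79 ± 0.10 (adjusted p from 1.17e-13 to 0.000211). From glycerol to ethanol the differences that passed were ADE2 at 1.08 ± 0.10, ADE4 at 2.05 ± 0.07, ADE5,7 at 1.60 ± 0.11, ADE6 at 0.95 ± 0.11, ADE8 at -0.26 ± 0.09, ADE12 at 0.43 ± 0.09, ADE13 at 0.58 ± 0.09, ADE16 at 0.37 ± 0.09 and ADE17 at 0.67 ± 0.10 (adjusted p from 1.59e-14 to 0.0114). The median of all genes was -0.18, 0.40 and 0.60 in these comparisons. Of all genes, 31.5%, 56.5% and 65.4% were more positive and 46.7%, 20.2% and 15.4% less. ADE8 and ADE16 from glucose to ethanol, and ADE13 and ADE17 from glycerol to ethanol, lay near that median. After centring, ADE12 and ADE16 passed as less positive from glycerol to ethanol, at -0.30 and -0.36 (limma adjusted p = 0.00229 and 0.000199). All values that changed sign with centring are given under the processing. The largest, for ADE17 from glucose to ethanol, came from a change of 3.06 ± 0.07 in YJM975 and 0.27 ± 0.07 in RM11. For comparisons with glucose the sequencing run changes with the medium in both strains, and its part in the result was not tested. Groups of 3 libraries were not searched for single libraries that stand apart.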

How the results depend on the processing

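TPM is a share, so the choice of scaling mattered most. Only the larger changes of count, and those to or from 0, are listed with their counts. With median centring, the ADE counts higher and lower became 3 and 4 between strains in glucose, 8 and 1 in glycerol, 9 higher from glycerol to ethanol in RM11 and 2 lower in YJM975, and, for the strains' difference in response, 0 lower from glucose to glycerol and 4 and 4 from glycerol to ethanol. With quantile normalization they became 2 higher in glucose, 6 and 2 in glycerol, 9 higher and 1 lower for the same media changes, and 0 lower and 5 and 2 for the responses. Rescaled without the 50 most abundant genes they became 6 and 2 in glycerol, 8 higher and 1 lower, and 0 lower and 2 lower, and the summed TPM rose to 1543, 1197, 1279, 1920.4, 1785 and 2932 (RM11 then YJM975 in glucose, glycerol and ethanol). Among the smaller changes, ADE2, ADE5,7 and ADE16 were called more positive in the glucose to glycerol response under all 3 scalings. With quantile normalization ADE2 and ADE16 lost their calls as lower between strains in glucose. The strain difference in ethanol, 8 higher and 1 lower, kept its counts under all 3 scalings.

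Values that changed sign with centring were ADE2 0.16, ADE4 0.014, ADE13 0.37 and ADE16 0.10 between strains in glucose, ADE2 0.58, ADE5,7 0.34, ADE6 0.44 and ADE16 0.46 in glycerol, ADE6 0.21 from glycerol to ethanol in RM11, ADE16 -0.080 from glucose to ethanol and ADE8 -0.13 from glycerol to ethanol in YJM975, and for the responses ADE8 -0.034 and ADE16 -0.0080 from glucose to ethanol and ADE12 -0.30, ADE13 -0.15, ADE16 -0.36 and ADE17 -0.061 from glycerol to ethanol. With quantile normalization they were ADE2 0.026 and ADE13 0.18 in glucose, ADE2 0.34, ADE5,7 0.084, ADE6 0.35 and ADE16 0.081 in glycerol, ADE6 0.18 from glycerol to ethanol in RM11 and ADE12 -0.12 for that response. Rescaled, they were ADE13 0.035 in glucose, ADE2 0.24, ADE5,7 0.00059, ADE6 0.10 and ADE16 0.13 in glycerol, ADE6 0.026 in RM11 and ADE16 -0.026 for the response. The cause was not tested.

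The log2 ratio of ADE16 to ADE17 in YJM975 became 3.23 in glucose and 2.68 in glycerol with a pseudocount of 0.1, and 2.77 and 2.44 with 5. Leaving out each library moved the lower count from glucose to ethanol in RM11 between 1 and 2, that from glucose to glycerol in RM11 between 3 and 4, that between strains in glycerol between 5 and 6 (ADE2 without replicate 2 of YJM975), the higher count of the glucose to glycerol response between 6 and 8 (ADE2 and ADE5,7), that from glycerol to ethanol in RM11 between 4 and 6 and that between strains in ethanol between 8 and 9, and ADE4 from glucose to glycerol in RM11, not called, from -0.039 (without replicate 3 in glucose) to 0.0056 without replicate 1 in glucose and 0.0096 without replicate 1 in glycerol. Other pseudocounts, filters, the fit on the groups compared, that with no trend and the added fit without glucose libraries kept every ADE count and call. Replicate numbers did not pair the libraries: 0 of 15 pairs of groups had every correlation of deviations over 0.1 (from -0.217 to 0.159). With the replicate block the ADE counts were the same, 8 higher in ethanol among them, and all calls between strains in glucose went from 5244 to 5249. No depth is known, so what it limits cannot be given.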
